A study of Mus musculus with 16 samples.

Results

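Bulk striatal RNA was compared between mice with an edited Crym gene (Crym KO Input) and mice with a control guide (Control Input). The 8 Input libraries were selected by their labels from the 16 RNA-seq libraries of the series, 4 of each group, and the comparison covered every gene that passed a filter on low counts, 19990 of 48795 gene identifiers. All mice carried CAG-Cas9-EGFP, so that Cas9 and the green fluorescent protein were driven by the ubiquitous CAG promoter. At 6 to 8 weeks of age they were injected into the central striatum on both sides with 2 AAV2/5 viruses. The first carried guide RNAs under the U6 promoter, 3 guides against Crym for Crym KO mice or 1 guide against EGFP for Control mice (genotype WT in the labels), together with mCherry under the astrocyte promoter GfaABC1D. The second carried the ribosomal protein Rpl22 with an HA tag under GfaABC1D, and it was given to both groups. Striata were collected at 10 to 12 weeks, 20% of each cleared lysate was kept as Input, and astrocyte ribosomes were pulled down from the rest by the HA tag (IP). The Input therefore held RNA of every cell type in the dissected tissue. As U6 and CAG are active in all cells, the label Crym KO does not restrict editing to astrocytes, except through the cells that AAV2/5 reached.

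Crym encodes mu-crystallin, a cytosolic protein that binds the thyroid hormone T3 and also acts as a ketimine reductase in lysine breakdown. In the striatum its RNA is found mainly in astrocytes. Medium spiny neurons, the GABA-releasing projection neurons that make up most striatal neurons, lie beside astrocytes, interneurons, oligodendrocytes, microglia and vessels. Tissue next to the striatum, such as thalamus, cortex, septum and the choroid plexus of the ventricle, can enter a dissection. In bulk RNA, fewer cells of a type and less RNA per cell cannot be told apart.

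Total counts were 39421209 to 49871036 in Crym KO Input and 44374034 to 54235574 in Control Input, and 26346 to 27280 genes had at least 1 count. The mice of a group were separate animals. Numbers 1 and 2 were female and numbers 3 and 4 male in both groups, by Xist and Ddx3y. Mitochondrial genes took 5.87 to 6.62% of counts in Crym KO Input and 5.15 to 6.12% in Control Input. Control Input 4 stood apart. Its choroid plexus markers summed to 1214 CPM (counts scaled to a common library size), against 270.4 to 299.7 CPM in Crym KO Input and 287 to 317 CPM in the other Control Input libraries, and it lay at -17.8 on the second principal component, the others at -0.51 to 4.96. Control Input 1 had the highest sum of thalamus markers. For the lists and genes in which these libraries were farthest from their group, values without them are given beside the result.

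The targeted gene was the first check of the labels. Crym (ENSMUSG00000030905, GRCm38 chr7:120186380-120202111, minus strand) had 55.99, 43.9, 45.3 and 44.3 CPM in Crym KO Input, against 56.4, 55.4, 69.1 and 57.9 CPM in Control Input. Only Crym KO Input 1 overlapped the Control range, and the means were 47.4 ± 5.79 CPM in Crym KO Input and 59.7 ± 6.37 CPM in Control Input (SD, n = 4 each), or 79.2% of Control. The log2 fold change was -0.34 (SE 0.09, 95% interval -0.52 to -0.15), and its adjusted p of 0.263 in limma-voom did not pass the threshold of 0.05. An exact two-sided permutation test over the 8 mice gave p = 0.0571 (0.0857 after Benjamini-Hochberg adjustment over 3 genes tested this way), where 0.0286 is the smallest p that 4 against 4 allow. DESeq2 called it (log2 fold change -0.33, adjusted p = 0.0247). In the IP libraries of the same mice Crym averaged 60.4 ± 10.7 CPM in Crym KO and 175 ± 40.02 CPM in Control (log2 fold change -1.52). The difference between the IP and Input effects was -1.19, with an adjusted p of 1.00 over all genes in limma-voom (unadjusted p = 0.000112). In the fit of IP minus Input within each mouse it was -1.18, with an unadjusted p of 0.00104 and an adjusted p of 0.766.

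Abca14, the gene next to Crym, had the lowest p of all genes. It encodes an ATP-binding cassette transporter, lies at chr7:120203961-120325352 on the plus strand, 1850 bases beyond the start of Crym, and points away from it. Its counts were 16, 15, 46 and 17 in Crym KO Input, against 0, 0, 3 and 0 in Control Input. The groups did not overlap, and pooled counts were 94 in Crym KO and 3 in Control, a depth-corrected ratio of 33.6 (95% interval 11.1 to 166, counting error only). The log2 fold change was 4.80 (SE 0.61, 95% interval 3.48 to 6.13), with an adjusted p of 0.0913 in limma-voom. Abca14 passed the threshold with DESeq2 (5.10), with all 16 libraries fitted (4.80), with a term for sex (4.83), without Control Input 3 (5.46, adjusted p = 0.0210) and without Control Input 4 (4.55, adjusted p = 0.0124). Its level stayed at or below 1.00 CPM in every Input library. Around Crym, 15 other tested genes lay within 500 kb, with log2 fold changes between -0.51 and 0.30, and 0 of them had an unadjusted p under 0.05. Printed here is the sequence directly before the RefSeq start of Abca14, part of the gap between it and Crym, from GRCm38.p6 chr7:120203844-120203963 on the plus strand, with no motif marked.
Abca14: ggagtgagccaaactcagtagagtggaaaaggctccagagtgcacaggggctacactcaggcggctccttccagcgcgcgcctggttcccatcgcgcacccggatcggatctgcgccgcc

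Rpl22, whose tagged copy was delivered to both groups, had 116, 107, 132 and 96.8 CPM in Crym KO Input, against 86.3, 117, 87.7 and 93.6 CPM in Control Input. The groups overlapped (log2 fold change 0.23, SE 0.10, adjusted p = 0.421 in limma-voom, exact permutation p = 0.143). Counts of the viral and the native Rpl22 RNA cannot be told apart.

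**Figure D1:**
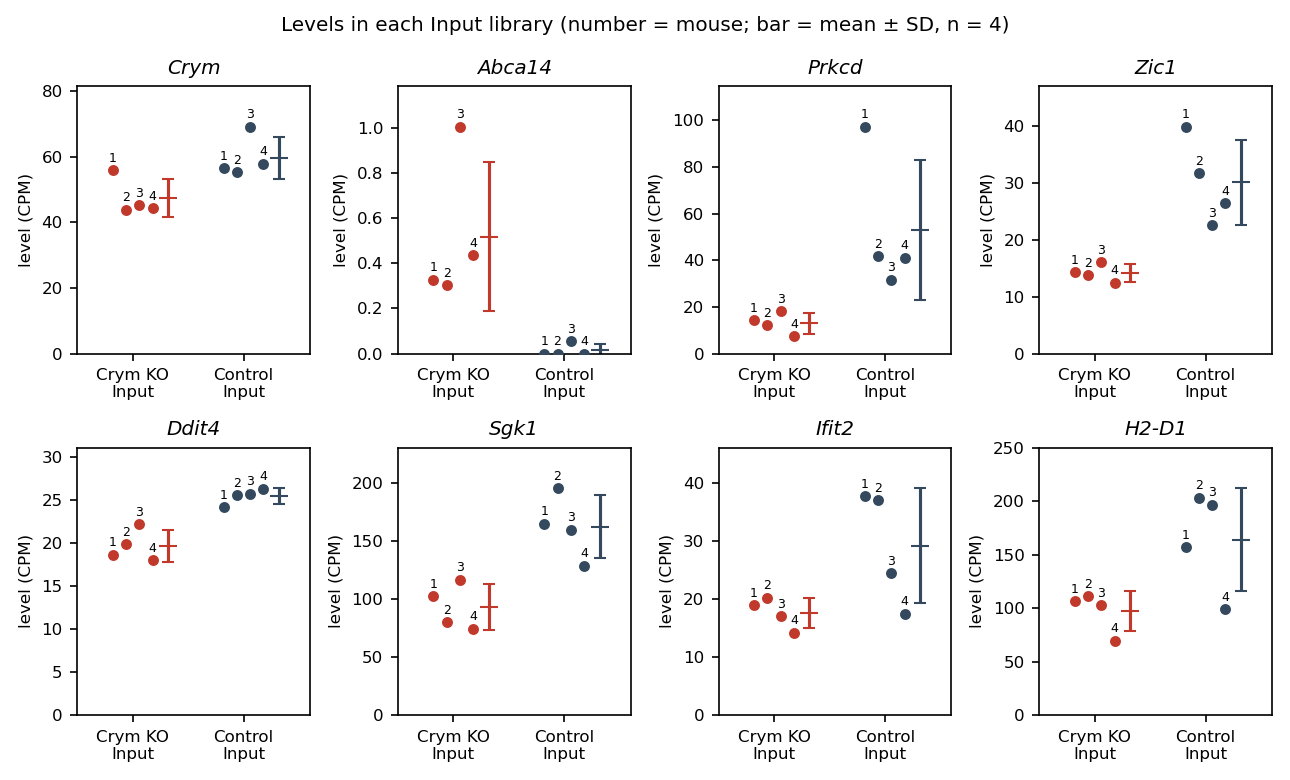
CPM of 8 genes in each Input library, with the mouse number beside each point and the group mean ± SD (n = 4 each), Crym KO Input on the left and Control Input on the right of every panel. Crym KO points lie below all Control points for Prkcd, Zic1, Ddit4 and Sgk1 and above them for Abca14, while for Crym, Ifit2 and H2-D1 the groups overlap.

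Across the transcriptome, 0 of 19990 genes (0%) passed an adjusted p of 0.05 in limma-voom. The unadjusted p was under 0.05 for 2270 genes (11.4%), of which 1225 were lower in Crym KO Input (6.13%) and 1045 higher (5.23%). All 4 Crym KO libraries lay below or above all 4 Control libraries for 1141 genes (5.71%), below for 566 (2.83%) and above for 575 (2.88%). A negative log2 fold change was found for 10041 genes (50.2%) and a positive one for 9949 (49.8%), with a median of -0.00 and a median SE of 0.08. The edgeR quasi-likelihood test also called 0 genes (2404 at an unadjusted p under 0.05), DESeq2 called 160 (0.8%, 57 higher and 103 lower), and a fit of all 16 libraries called 2 of 20645 (0.00969%), Abca14 and the immunoglobulin gene Ighv1-50. Without Control Input 4, limma-voom called 127 of 20188 genes (0.629%), 124 of them lower in Crym KO (0.614%) and 3 higher. Without Control Input 3 it called 6, and without any one of the other 6 libraries 0.

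The 24 genes with the smallest p among those at 1 CPM or more in the higher group had adjusted p-values of 0.192 to 0.217 in limma-voom. Of these, 19 were lower and 5 higher in Crym KO Input, and the groups did not overlap for any of them. As the 24 genes were picked by p in these same libraries, their separation and their passing in other fits are no independent support. With DESeq2 23 of the 24 passed the adjusted threshold (0.8% of all genes). In limma-voom 12 of the 24 passed without Control Input 4 (0.629% of all genes), 4 without Control Input 3 and 0 without any one of the other libraries. The lowest p among them belonged to Zic1, a zinc finger transcription factor of thalamic and septal neurons (chr9:91358058-91365810, minus strand). Zic1 had 14.3, 13.8, 16.1 and 12.4 CPM in Crym KO Input, against 39.8, 31.6, 22.5 and 26.3 CPM in Control Input (log2 fold change -1.04, SE 0.16). The lowest Control library, number 3, was still above every Crym KO library. Ddit4, an inhibitor of the growth kinase mTORC1 that is induced by stress and glucocorticoids (chr10:59949669-59951834, minus strand), had 18.6, 19.9, 22.2 and 17.98 CPM in Crym KO Input, against 24.2, 25.6, 25.7 and 26.3 CPM in Control Input (log2 fold change -0.37, SE 0.06). The highest Crym KO library was below the lowest Control library. Herpud1, an endoplasmic reticulum protein of the unfolded protein response (chr8:94386438-94395377, plus strand), had 55.97, 58.3, 59.3 and 53.9 CPM in Crym KO Input, against 69.9, 70.4, 63.9 and 67.7 CPM in Control Input (log2 fold change -0.26, SE 0.04).

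Among the others, Kndc1, a brain protein with a guanine nucleotide exchange domain, had 83.02, 83.5, 83.5 and 81.8 CPM in Crym KO Input, against 110.3, 103, 91.1 and 107 CPM in Control Input (log2 fold change -0.30, SE 0.05). Plch1, a phospholipase C, had a log2 fold change of -0.33, and Adarb2, a brain RNA-binding relative of the RNA-editing deaminases, -0.30. Sgk1, a kinase induced by glucocorticoids (chr10:21882184-21999903, plus strand), had 103, 80.2, 117 and 74.5 CPM in Crym KO Input, against 165, 196, 159.9 and 129 CPM in Control Input (log2 fold change -0.80, SE 0.14). Its values varied within each group, from 74.5 to 117 CPM in Crym KO and from 129 to 196 CPM in Control. Ucp2, a carrier of the inner mitochondrial membrane, had 4.44, 5.02, 4.34 and 4.42 CPM in Crym KO Input, against 5.59, 6.797, 6.63 and 7.05 CPM in Control Input (log2 fold change -0.52, SE 0.09). Ptger4, a receptor of prostaglandin E2, was near 1 CPM in every Crym KO library (1.06, 1.15, 1.13 and 1.07 CPM in Crym KO Input, against 1.63, 1.98, 1.71 and 1.79 CPM in Control Input). Rasd1, a Ras-like protein induced by dexamethasone, had 1.76, 1.58, 2.36 and 1.66 CPM in Crym KO Input, against 5.18, 4.397, 3.095 and 3.01 CPM in Control Input (log2 fold change -1.05, SE 0.21). The remaining lower genes were Prkcd, Lhx9, Tsc22d3 and Nfkbia, described with their lists, and, with their log2 fold changes, Arl4c (-0.23), Endod1 (-0.20), Mdfic (-0.48), 1700017B05Rik (-0.37) and Gm43398 (-1.83).

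The 5 higher genes were expressed at 23.1 CPM or more in every library. Robo2, a receptor for the axon guidance protein Slit, had 299, 287, 297 and 302 CPM in Crym KO Input, against 257, 262, 271 and 254 CPM in Control Input (log2 fold change 0.18, SE 0.03). Cnr1, the cannabinoid receptor CB1 (chr4:33924593-33948831, plus strand), had 511, 472, 474 and 494 CPM in Crym KO Input, against 419, 389, 425 and 438 CPM in Control Input (log2 fold change 0.22, SE 0.04). Lmo3, a LIM-only transcription cofactor, had 214, 194, 209 and 238 CPM in Crym KO Input, against 142, 138, 192 and 151 CPM in Control Input (log2 fold change 0.46, SE 0.09). For all 3 the gap between the groups was smaller than the range within Control Input. St8sia3, a sialyltransferase of the brain, had a log2 fold change of 0.20, and Arhgap29, a GTPase-activating protein, 0.29. Ighv1-50, a heavy-chain variable segment below the level needed for naming, was chosen after its values were seen, with counts of 0, 1, 8 and 4 in Crym KO Input, against 40, 37, 56 and 40 in Control Input. Its log2 fold change was -4.13 (SE 0.59, adjusted p = 0.159 in limma-voom), and near-identical variable segments make its counts uncertain.

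**Figure D2:**
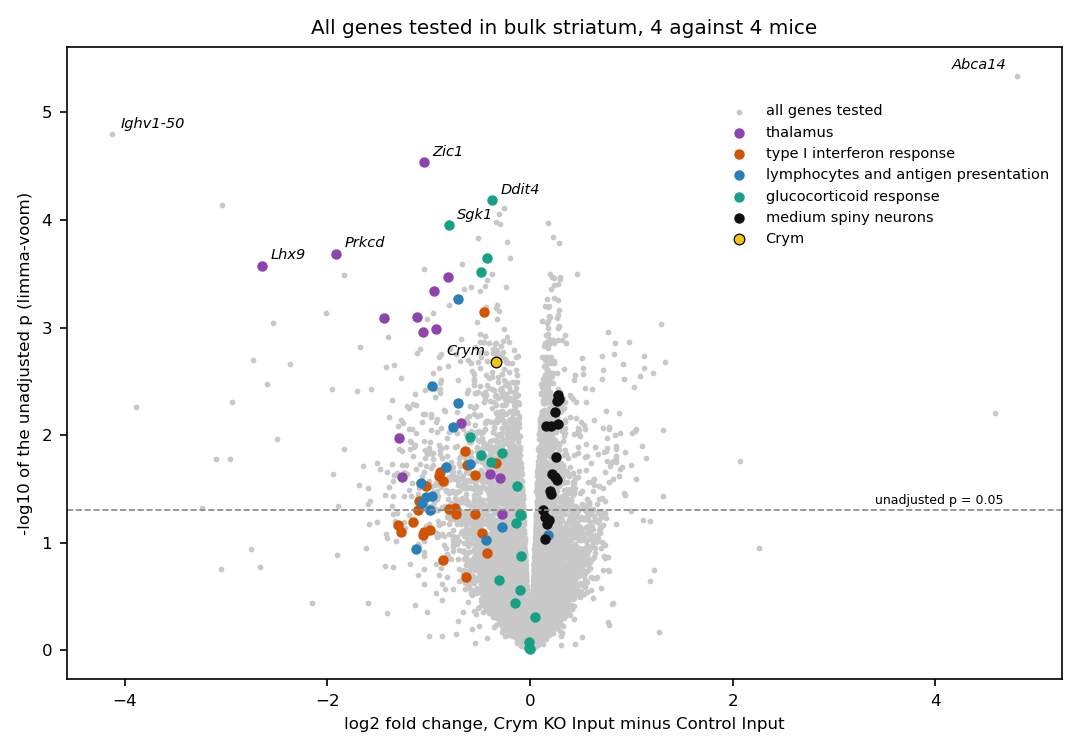
The log2 fold change of Crym KO Input over Control Input (x axis) against -log10 of the unadjusted limma-voom p (y axis) for 19990 genes, with members of 5 gene lists coloured, Crym marked and a dashed line at the unadjusted threshold. Thalamus and interferon genes lie on the left, as do antigen presentation genes except Cd4 (0.18), medium spiny neuron genes on the right close to 0, and 0 genes pass the adjusted threshold.

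Thalamus markers had the lowest median of the lists, with 0 past the adjusted threshold. All 15 markers tested had negative log2 fold changes, against 50.2% of all genes, 14 had an unadjusted p under 0.05 (6.13% of all genes on the lower side), 10 had all Crym KO libraries below all Control libraries (2.83% of all genes), and the median was -1.04. The summed level was 283.9, 328.2, 341.3 and 278.6 CPM in Crym KO Input, against 687, 444.8, 372 and 481.9 CPM in Control Input, with no overlap. Prkcd, a protein kinase C abundant in thalamic relay neurons (chr14:30595354-30626210, minus strand), had 14.2, 12.04, 18.2 and 7.56 CPM in Crym KO Input, against 97.2, 41.7, 31.6 and 41.1 CPM in Control Input (log2 fold change -1.91, SE 0.36). Control Input 1 was far above the other Control libraries for Prkcd, and without it the log2 fold change was -1.58 (SE 0.20, adjusted p = 0.0786 in limma-voom). Lhx9, a transcription factor of the developing thalamus (chr1:138825186-138848577, minus strand), had counts of 10, 18, 11 and 10 in Crym KO Input, against 128, 75, 45 and 119 in Control Input (log2 fold change -2.65, SE 0.52). Slc17a6, the vesicular glutamate transporter VGLUT2 of thalamic and other subcortical neurons, had 20.1, 29.4, 27.5 and 21.8 CPM in Crym KO Input, against 63.6, 45.3, 29.6 and 56.04 CPM in Control Input (log2 fold change -0.92, SE 0.21). Tcf7l2, a Wnt pathway transcription factor that marks thalamic neurons, had 3.07, 2.95, 3.34 and 2.401 CPM in Crym KO Input, against 9.69, 5.86, 4.03 and 6.67 CPM in Control Input (log2 fold change -1.06, SE 0.25).

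The remaining thalamus members followed the same side. Calb2, a calcium-binding protein, had 5.52, 6.35, 5.22 and 4.39 CPM in Crym KO Input, against 12.7, 14.9, 9.03 and 26.7 CPM in Control Input, with Control Input 4 highest, and a log2 fold change of -1.44, or -1.13 without Control Input 4 (adjusted p = 0.0104 in limma-voom). Log2 fold changes were -0.95 for Zic4, -1.12 for Rgs16, -0.81 for Plekhg1, -1.30 for Tnnt1, -1.27 for Gbx2, -0.68 for Lef1, -0.40 for Synpo2, -0.30 for Rora and -0.28 for Ntng1, the only member above an unadjusted p of 0.05. Leaving out Control Input 1 gave a median of -0.90, leaving out Control Input 4 -1.02, and leaving out both -0.68. DESeq2 called 10 of the 15 as lower (0.515% of all genes), and limma-voom called 3 without Control Input 4 (0.614%) and 6 without both (0.666%). Zic1, Zic4, Calb2 and Slc17a6 also stand in lists of septum, interneurons or glutamate handling, and Zic2 of the septum list had a log2 fold change of -0.59. In the IP libraries of the same mice 15 of 15 markers were also negative, with a median of -0.36. The part of dissected tissue in these values was not tested.

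Markers of medium spiny neurons were on the opposite side, by a smaller amount and again with 0 past the adjusted threshold. All 18 had positive log2 fold changes (49.8% of all genes), 14 with an unadjusted p under 0.05 (5.23% of all genes), and the median was 0.21. For 0 of them were the groups separated (2.88% of all genes above). Sums were 8604, 6985, 8436 and 7560 CPM in Crym KO Input, against 7166, 5911, 7318 and 6765 CPM in Control Input. Mouse 2 was the lowest of each group. Penk, which encodes the enkephalin precursor of indirect-pathway neurons, had 624, 533, 643 and 564 CPM in Crym KO Input, against 532, 422, 537 and 478 CPM in Control Input (log2 fold change 0.27, SE 0.08). Log2 fold changes were 0.27 for the transcription factor Bcl11b, 0.25 for the phosphodiesterase Pde10a, 0.21 and 0.24 for the dopamine receptors Drd1 and Drd2, 0.19 for Ppp1r1b (DARPP-32) and 0.15 for Tac1, the substance P precursor. DESeq2 called 2 of the 18 as higher (0.285% of all genes), among them Bcl11b, and leaving out 1 library gave medians of 0.14 to 0.27. The median of the same genes in IP was 0.10. Markers of direct-pathway neurons had a median of 0.10 and a ratio of summed levels of 1.02, and those of indirect-pathway neurons a median of 0.24 and a ratio of 1.16. The median was 0.04 over 9 striosome genes and 0.10 over 7 matrix genes, the compartments of the striatum.

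The median of choroid plexus genes rested on 1 library. All 12 choroid plexus markers tested, of 16, were negative, with a median of -0.90, and without Control Input 4 the median was -0.01. Ttr, the thyroxine carrier transthyretin that the choroid plexus secretes, had 1.902, 2.93, 2.29 and 2.299 CPM in Crym KO Input, against 7.54, 0.935, 2.39 and 619 CPM in Control Input. Control Input 4 was far above all other libraries for Ttr, and the log2 fold change was -2.15 with an SE of 2.27. Markers of ependymal cells, which line the ventricle, were all negative but small (16 of 16, median -0.12, 1 at an unadjusted p under 0.05 against 6.13% of all genes on the lower side), and their sums of 34.9 to 47.7 CPM in Crym KO Input and 40.4 to 48.1 CPM in Control Input overlapped.

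**Figure D3:**
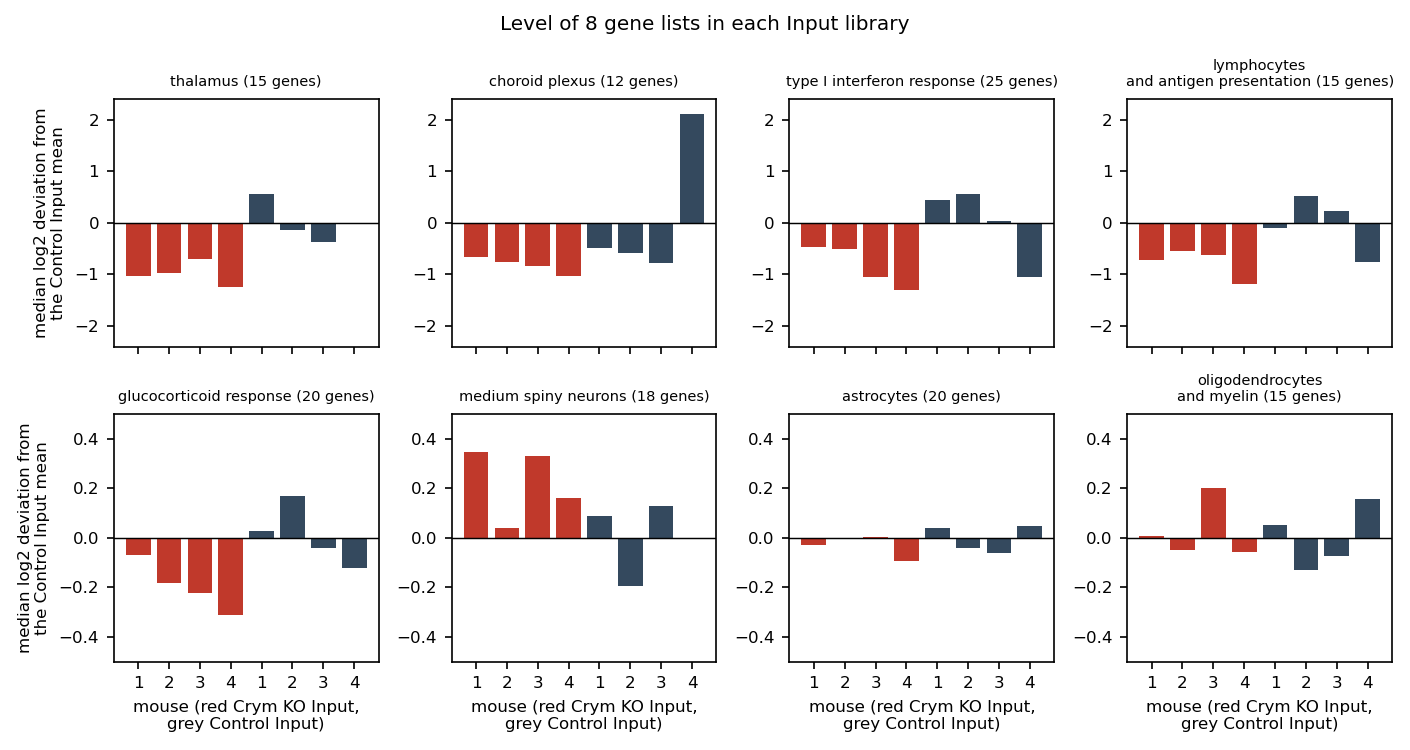
Median log2 deviation of each library from the mean of Control Input over the members of 8 gene lists, with 1 bar per library, Crym KO Input (red) to the left of Control Input (grey). Thalamus and interferon bars are below 0 in every Crym KO library, and Control Input 4 stands apart from the other Control libraries for choroid plexus, interferon and antigen presentation genes.

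Type I interferon signalling runs from interferon receptors through STAT proteins and IRF9 to genes with an interferon-stimulated response element, whose products restrict viruses. The 25 genes of this list were all negative (50.2% of all genes), 13 with an unadjusted p under 0.05 (6.13% of all genes on the lower side), and the median was -0.86. Sums were 247.5, 247.1, 188.1 and 139.7 CPM in Crym KO Input, against 460.5, 482.3, 360.9 and 175.3 CPM in Control Input. Number 4 was the lowest mouse of both groups, and Control Input 4 fell within the Crym KO range. Without it the median was -1.21 and limma-voom called 16 of 25 as lower (0.614% of all genes). Without Control Input 1 the median was -0.65 with 0 called, and without both, 12 of 25 were called as lower (0.666% of all genes). With all libraries DESeq2 called 1 of 25 as lower (0.515% of all genes) and limma-voom 0.

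Of the signalling components, Stat2 had 22.1, 22.3, 20.4 and 18.1 CPM in Crym KO Input, against 28.3, 30.2, 28.6 and 19.6 CPM in Control Input (log2 fold change -0.34, SE 0.12). Ifih1, the sensor MDA5 of double-stranded RNA, had 12.7, 10.4, 10.3 and 8.61 CPM in Crym KO Input, against 20.6, 22.3, 15.95 and 9.79 CPM in Control Input (log2 fold change -0.62, SE 0.23). Irf9 and Irf7, transcription factors of the response, had log2 fold changes of -0.55 and -0.98, both with an unadjusted p above 0.05. Among the effectors, Ifi27 had 17.4, 20.7, 18.5 and 14.4 CPM in Crym KO Input, against 23.7, 24.3, 27.7 and 21.5 CPM in Control Input (log2 fold change -0.45, SE 0.10). It was the single member of 25 with separated groups, where 2.83% of all genes had all Crym KO libraries below all Control libraries. Ifit2, which binds viral RNA (chr19:34550694-34576419, plus strand), had 18.98, 20.3, 17.1 and 14.2 CPM in Crym KO Input, against 37.8, 37.1, 24.5 and 17.5 CPM in Control Input (log2 fold change -0.64, SE 0.22, adjusted p = 0.344 in limma-voom). Ifit3, its partner, had 22.6, 24.3, 15.4 and 10.2 CPM in Crym KO Input, against 56.8, 55.6, 35.98 and 14.9 CPM in Control Input (log2 fold change -1.02, SE 0.41), and counts of Ifit3 and the near-identical Ifit3b (log2 fold change -0.74) may be split between them. Isg15, a ubiquitin-like modifier, had 2.11, 1.76, 0.938 and 0.306 CPM in Crym KO Input, against 4.55, 4.48, 3.13 and 0.807 CPM in Control Input (log2 fold change -1.27, SE 0.66). Ifit3 and Isg15 were named after their values were seen. For Ifit2, Ifit3 and Isg15, Control Input 1, 2 and 3 were above every Crym KO library, and Control Input 4 lay within their range. In the IP libraries of the same mice 25 of 25 were negative, with a median of -0.87.

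Promoters of this list were searched because the response is defined by a sequence. RefSeq promoters of GRCm38.p6, from 250 bases before to 50 after the start, were matched for 17 of the 25 genes, and 11 of these (64.7%) held GAAANNGAAA or, on the opposite strand, TTTCNNTTTC, against 3.99% (1079 of 27025) of all promoters. A match is a description of the letters only. Printed here are the stretches of 3 members with the matches in capitals, where adjoining or overlapping matches run together, for Isg15 at chr4:156200835-156200936 (minus strand), Ifit3 at chr19:34583333-34583456 (plus strand) and Stat2 at chr10:128270248-128270325 (plus strand).
Isg15: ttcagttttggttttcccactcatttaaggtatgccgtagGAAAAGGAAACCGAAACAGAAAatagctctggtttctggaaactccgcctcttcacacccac
Ifit3: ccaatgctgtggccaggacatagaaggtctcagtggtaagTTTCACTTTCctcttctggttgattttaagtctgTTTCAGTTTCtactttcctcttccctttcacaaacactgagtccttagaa
Stat2: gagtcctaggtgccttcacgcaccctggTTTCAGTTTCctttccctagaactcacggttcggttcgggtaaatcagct

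Antigen presentation and lymphocyte genes had a similar order of libraries. Of 21 genes 15 were tested, 14 had negative log2 fold changes (the exception was Cd4 with 0.18), 11 had an unadjusted p under 0.05 and were lower (6.13% of all genes), and the median was -0.82. Sums were 484.5, 501, 558.8 and 402 CPM in Crym KO Input, against 731.2, 1094, 938.6 and 500.1 CPM in Control Input, with Control Input 4 again lowest of its group. H2-D1, a class I histocompatibility heavy chain (chr17:35262730-35267499, plus strand), had 107, 111, 102 and 69.6 CPM in Crym KO Input, against 157, 203, 197 and 98.7 CPM in Control Input (log2 fold change -0.71, SE 0.21). Log2 fold changes were -0.75 for H2-K1, -0.59 for its partner beta-2-microglobulin B2m and -0.99 for Cd74, the invariant chain of class II. As H2 genes are close copies of each other, their single values are uncertain. Ighm, the immunoglobulin mu constant chain of B cells, had 45.4, 52.4, 66.8 and 64.9 CPM in Crym KO Input, against 86.3, 113, 106 and 69.9 CPM in Control Input (log2 fold change -0.71, SE 0.15, adjusted p = 0.240 in limma-voom). Together with Jchain (log2 fold change -0.97), which joins secreted antibodies, it made up the members with separated groups (2.83% of all genes below). The T cell genes Cd3g and Cd8a, at low levels, had log2 fold changes of -0.97 and -1.12. Without Control Input 4 the median was -1.04 and limma-voom called 4 of 16 as lower (0.614% of all genes), and DESeq2 called 1 with all libraries (0.515%).

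The list of reactive astrocyte genes shares H2-D1 with the previous one. Of 21 tested, 18 were negative (50.2% of all genes), 8 had an unadjusted p under 0.05, all lower (6.13% of all genes), and the median was -0.16, with sums of 374.7 to 485.4 CPM in Crym KO Input and 472 to 719.9 CPM in Control Input. The interferon-responsive members H2-T23, Psmb8 and Cxcl10 had log2 fold changes of -0.88, -0.97 and -1.32. Complement C3 had 3.19, 3.58, 3.51 and 1.76 CPM in Crym KO Input, against 7.06, 10.4, 8.47 and 3.19 CPM in Control Input (log2 fold change -1.16, SE 0.37). Gfap, the intermediate filament of reactive astrocytes, had a mean of 146 ± 16.8 CPM in Crym KO Input and 177 ± 24.2 CPM in Control Input (log2 fold change -0.28, SE 0.09). Serpina3n, a protease inhibitor raised in reactive astrocytes, had 10.1, 8.398, 7.88 and 6.28 CPM in Crym KO Input, against 8.74, 14.1, 11.3 and 10.6 CPM in Control Input (log2 fold change -0.44, SE 0.15). Vim and Cd44, filament and adhesion genes of reactivity, had log2 fold changes of -0.06 and -0.16. Without Control Input 4, limma-voom called 6 of the 21 as lower (0.614% of all genes), with a median of -0.18, and DESeq2 called 0 with all libraries. Microglia markers were mixed, with a median of -0.06, where Fcrls and the purinergic receptor P2ry12 had higher values in all Crym KO libraries (log2 fold changes 0.28 and 0.18) and the complement gene C1qa had a log2 fold change of -0.21.

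**Figure D4:**
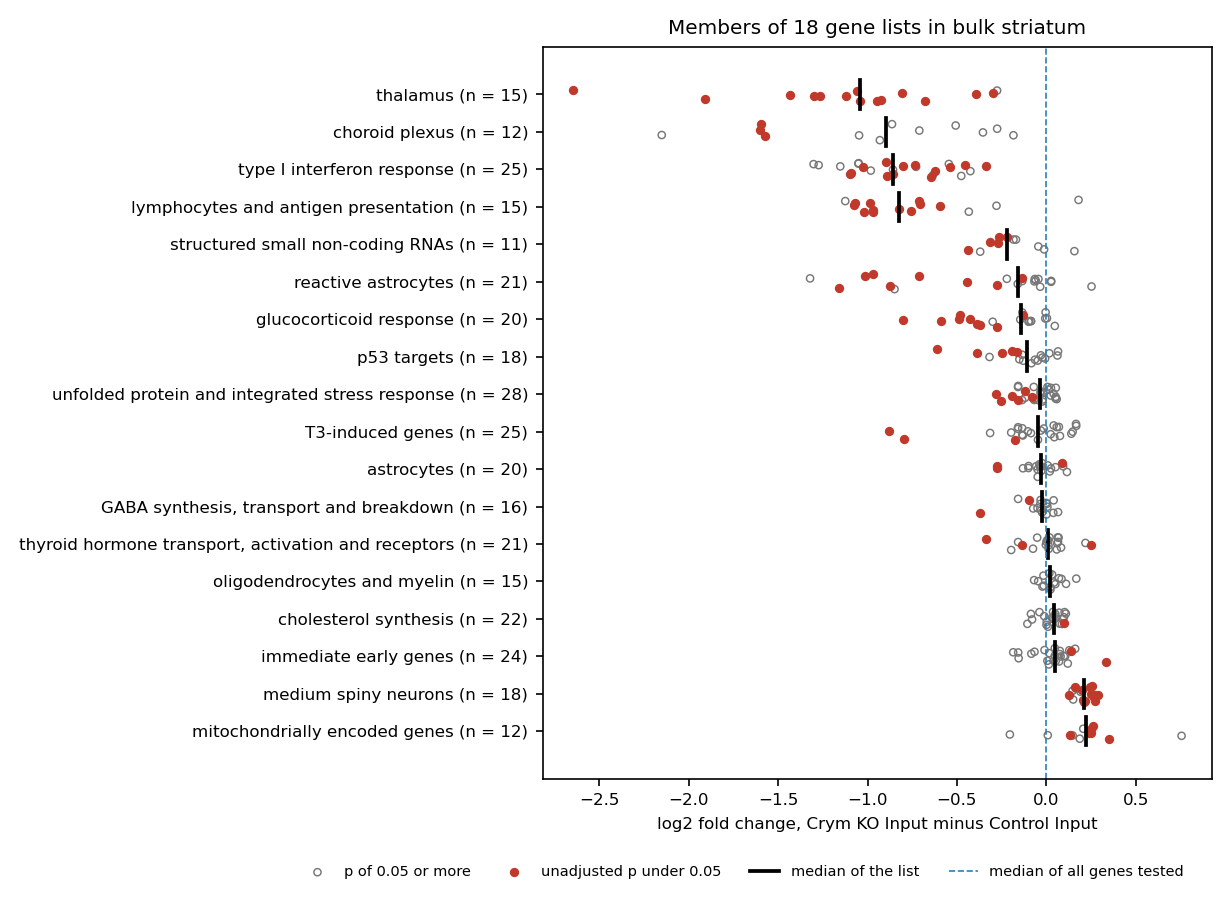
Log2 fold changes of Crym KO Input over Control Input for the members of 18 gene lists (1 point per gene, red at an unadjusted p under 0.05), with the median of each list and a dashed line at the median of all genes, -0.00. Thalamus (-1.04), choroid plexus (-0.90), interferon (-0.86) and antigen presentation (-0.82) have the lowest medians, and medium spiny neurons (0.21) and mitochondrially encoded genes (0.22) the highest.

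Glucocorticoids enter cells, bind the receptor encoded by Nr3c1 and induce a set of genes that damp inflammation and growth. Of the 20 genes of this list 18 were negative (50.2% of all genes), 9 had an unadjusted p under 0.05, all lower (6.13% of all genes), 5 had separated groups, all Crym KO libraries below (2.83% of all genes), and the median was -0.14, or -0.22 without Control Input 4. The sums were 1048, 1016, 1078 and 954 CPM in Crym KO Input, against 1211, 1292, 1148 and 1078 CPM in Control Input. The lowest Control library, number 4, was level with the highest Crym KO library. Besides Sgk1 and Ddit4 given above, Tsc22d3, the anti-inflammatory leucine zipper GILZ, had 70.7, 72.97, 77.3 and 57.9 CPM in Crym KO Input, against 95.1, 104, 89.7 and 85.7 CPM in Control Input (log2 fold change -0.43, SE 0.08). Nfkbia, the inhibitor of NF-kappaB, had 13.3, 13.1, 15.4 and 11.5 CPM in Crym KO Input, against 18.9, 21.1, 18.98 and 15.9 CPM in Control Input (log2 fold change -0.48, SE 0.10). Cdkn1a, the cell-cycle inhibitor p21, had 6.97, 7.204, 6.22 and 6.95 CPM in Crym KO Input, against 9.42, 12.1, 7.72 and 7.46 CPM in Control Input (log2 fold change -0.39, SE 0.14). Other targets did not share this pattern. Fkbp5, a chaperone that limits receptor activity, had a log2 fold change of -0.13, the metallothioneins Mt1 and Mt2 -0.00 and 0.00, Per1 -0.09 and the receptor Nr3c1 itself -0.01. DESeq2 called 4 of the 20 as lower (0.515% of all genes), and limma-voom called 4 as lower without Control Input 4 (0.614%) and 0 with all libraries.

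The glucocorticoid response element was searched as GNACANNNTGTNC, which reads the same on both strands. It was found in 3 of 18 matched promoters of this list (16.7%), those of Sgk1, Mt1 and Map3k6, against 0.537% (145 of 27025) of all promoters. The Sgk1 stretch is printed because Sgk1 had the largest fold of the 3 holders, with the match in capitals, at chr10:21993662-21993754 on the plus strand, before one RefSeq start of the gene. Mt1 held the motif as well, with a log2 fold change of -0.00.
Sgk1: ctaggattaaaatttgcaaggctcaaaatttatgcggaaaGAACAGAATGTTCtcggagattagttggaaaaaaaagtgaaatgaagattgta

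The unfolded protein response raises chaperones of the endoplasmic reticulum when proteins misfold there, through ATF6, XBP1 and ATF4. Of 28 genes, 19 were negative (50.2% of all genes), 6 had an unadjusted p under 0.05, all lower (6.13% of all genes), 4 had all Crym KO libraries below Control (2.83% of all genes) and 1 above (2.88%), and the median was -0.04. Beside Herpud1, Hspa5, the main chaperone of the organelle (BiP), had 248, 244, 228 and 223 CPM in Crym KO Input, against 266, 266, 255 and 263 CPM in Control Input (log2 fold change -0.16, SE 0.04). Sdf2l1, a cochaperone of BiP, had 8.59, 9.37, 8.01 and 7.36 CPM in Crym KO Input, against 10.7, 10.5, 10.1 and 9.49 CPM in Control Input (log2 fold change -0.28, SE 0.08). The groups were separated for both, by steps that were small relative to their levels. The regulators Xbp1 and Atf4 had log2 fold changes of -0.12 and -0.03, and the other chaperones Hsp90b1 and Calr 0.05 and 0.06. Without Control Input 4, limma-voom called 1 of 28 as lower (0.614% of all genes), and DESeq2 called 2 as lower with all libraries (0.515%).

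The 2 forms of the endoplasmic reticulum stress element were searched in the 25 matched promoters. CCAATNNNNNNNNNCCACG, or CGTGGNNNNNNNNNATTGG on the opposite strand, was in 8 of them (32%), against 0.137% (37 of 27025) of all promoters. The second form, ATTGG and CCACG parted by 1 base, on either strand, was in 2 (8%), against 0.0444% (12). Hspa5 held the first form (chr2:34771985-34772083, plus strand) and Herpud1 the second (chr8:94386337-94386427, plus strand), with matches in capitals. Of the other holders of the first form, Calr, Canx and Hsp90b1 had log2 fold changes of 0.06, 0.02 and 0.05. Those of Creld2, Dnajc3, Pdia6 and Syvn1 were -0.12, -0.08, -0.04 and -0.02.
Hspa5: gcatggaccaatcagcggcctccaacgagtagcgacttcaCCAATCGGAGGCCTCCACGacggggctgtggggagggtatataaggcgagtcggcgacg
Herpud1: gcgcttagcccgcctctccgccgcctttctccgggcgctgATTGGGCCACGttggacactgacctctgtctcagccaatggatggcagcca

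Mitochondrial RNA and small RNAs lay on opposite sides. Of 12 mitochondrially encoded genes tested, 11 were positive (49.8% of all genes), 6 had an unadjusted p under 0.05 and were higher (5.23% of all genes), 4 had separated groups (2.88% of all genes above), and the median was 0.22. The subunits of respiratory complex I mt-Nd2, mt-Nd4 and mt-Nd5 had log2 fold changes of 0.35, 0.26 and 0.24, mt-Cytb of complex III 0.25, and mt-Co1 of complex IV 0.13. For mt-Co2, also of complex IV, it was 0.01 at a low level (means of 3.12 CPM in Crym KO Input and 3.05 CPM in Control Input). The median was 0.05 over the female mice 1 and 2 and 0.42 over the male mice 3 and 4, a difference that was not tested. Control Input 4, a male, had the lowest sum of the Control libraries (20304 CPM), and without it the median over all other libraries was 0.17. Nuclear copies of mitochondrial DNA can share these reads. Structured small non-coding RNAs were on the other side, with 10 of 11 negative and a median of -0.22, or -0.19 without Control Input 4. Their sums were 2117, 1950, 2103 and 2152 CPM in Crym KO Input, against 2488, 2208, 2295 and 2829 CPM in Control Input, with no overlap. Rmrp, the RNA of RNase MRP, had 623, 621, 598 and 599 CPM in Crym KO Input, against 729, 666, 696 and 862 CPM in Control Input (log2 fold change -0.27, SE 0.06), and without Control Input 4, the highest, its log2 fold change was -0.19 (adjusted p = 0.0487 in limma-voom). Rn7s1 and its copy Rn7s2, RNAs of the signal recognition particle, had log2 fold changes of -0.44 and -0.27 and may share reads. The part of RNA quality in both results was not tested. Nuclear long non-coding RNAs such as Malat1, Meg3 and Neat1 (log2 fold changes -0.05, 0.05 and 0.01) had 0 of 12 at an unadjusted p under 0.05 and a median of 0.02.

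Cas9 cutting can activate p53. Of 18 p53 targets, 15 were negative (50.2% of all genes), 5 had an unadjusted p under 0.05, all lower (6.13% of all genes), and the median was -0.11. Phlda3, an inhibitor of the kinase AKT, had 17.8, 18.3, 19.3 and 17.1 CPM in Crym KO Input, against 21.9, 21.3, 19.4 and 24.02 CPM in Control Input (log2 fold change -0.25, SE 0.07), and the death receptor Fas had a log2 fold change of -0.61. Mdm2, Ccng1 and Bax had log2 fold changes of -0.02, -0.13 and -0.06. Both groups expressed Cas9 and had received a guide virus.

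General astrocyte genes had a median near that of all genes. Of 20, 13 were negative and 7 positive, the median was -0.03, and the sums were 8880 to 9199 CPM in Crym KO Input and 8583 to 9007 CPM in Control Input. The glutamate transporter Slc1a2 had a log2 fold change of 0.09 and Slc1a3 0.03, the water channel Aqp4 -0.04, and the connexins Gja1 and Gjb6 -0.04 and -0.27. In the list of potassium, water and gap junction genes 4 of 21 had an unadjusted p under 0.05 (11.4% of all genes), among them the potassium channels Kcnj10 and Kcnk2 with log2 fold changes of -0.15 and 0.17. Of 16 GABA handling genes 1, Slc6a11, had separated groups, a share near the 5.71% of all genes. Slc6a11, the astrocyte GABA transporter GAT-3, had 67.9, 83.96, 77.6 and 72.3 CPM in Crym KO Input, against 91.5, 90.8, 86.5 and 124 CPM in Control Input (log2 fold change -0.37, SE 0.10, adjusted p = 0.282 in limma-voom). Without Control Input 4 its log2 fold change was -0.25 (adjusted p = 0.135 in limma-voom). Log2 fold changes were 0.00 for the synthetic enzyme Gad1 and 0.00 for Maob, which makes GABA from putrescine in astrocytes. The median of the 16 genes was -0.03.

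Mu-crystallin binds thyroid hormone, so genes of its transport, activation and receptors and genes that T3 induces were listed. Of 21 genes of the first list, 14 were positive, 3 had an unadjusted p under 0.05 (11.4% of all genes) and the median was 0.01. Beside Crym these were the retinoid X receptor Rxrg (log2 fold change 0.25) and the amino acid and hormone transporter Slc7a5 (log2 fold change -0.14). The deiodinase Dio2, which makes T3 in astrocytes, had a log2 fold change of -0.00 (SE 0.07), and the receptors Thra and Thrb of 0.06 and 0.08. The T3-induced list had 15 of 25 negative (50.2% of all genes) and a median of -0.05. At an unadjusted p under 0.05 were 3 of them, all lower (6.13% of all genes on the lower side, 11.4% on either side). Klf9 and Hr, classic targets of the receptor, were not among these, with log2 fold changes of -0.09 and -0.14. The 3 were Aldh1a3, a retinaldehyde dehydrogenase, with a log2 fold change of -0.88, the glutaminase Gls2 with -0.17, and Gbp3, which interferon also induces, with -0.80. Aldh1a3 was at a low level, with counts of 12, 13, 8 and 15 in Crym KO Input, against 26, 26, 20 and 23 in Control Input. Lysine and ketimine metabolism, the enzymatic context of mu-crystallin, had 7 of 14 negative and a median of 0.01, and only Crym had an unadjusted p under 0.05. The first enzyme of lysine breakdown, Aass, had a log2 fold change of 0.02.

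Synaptic gene lists had medians between -0.01 and 0.05. Of 24 glutamate receptor subunits, 16 were positive, 6 were higher (5.23% of all genes) and 3 lower (6.13%) at an unadjusted p under 0.05, and the median was 0.05. The AMPA receptor subunit Gria1 had a log2 fold change of 0.12, the metabotropic receptor Grm5 of 0.17 and the NMDA receptor subunits Grin2b and Grin2d of 0.12 and -0.37. Among 15 GABA receptor subunits the median was -0.00, and Gabra2 had 61.1, 57.5, 55.9 and 57.3 CPM in Crym KO Input, against 49.2, 51.2, 52.7 and 47.5 CPM in Control Input (log2 fold change 0.21, SE 0.04), with separated groups. Presynaptic release genes had 20 of 30 positive and a median of 0.03, with log2 fold changes of 0.17 for Cplx2 and -0.49 for Rims3, a gene of the active zone. The Dlgap, Slitrk and Shank families of postsynaptic scaffolds and adhesion proteins had 13 of 20 positive, 5 higher (5.23% of all genes) and 0 lower (6.13%) at an unadjusted p under 0.05, and a median of 0.04. Genes outside these families, such as Dlg2 and Homer1, were also in the list. Log2 fold changes were 0.12 for Dlg2, 0.12 for Slitrk3, 0.12 for Slitrk5 and 0.09 for Dlgap3. Glutamate uptake and glutamine cycle genes had a median of 0.00, with Slc17a6, given above, the lowest. Potassium channels had 12 of 24 negative and a median of -0.01, and the 73 tested of 78 genes for proteins found near mu-crystallin by proximity labelling in other mice had 41 positive and a median of 0.01.

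Of 16 neuropeptide precursors 9 were negative, with a median of -0.02. Pnoc, the nociceptin precursor, had 1.27, 1.64, 1.35 and 1.61 CPM in Crym KO Input, against 2.38, 2.87, 1.77 and 2.599 CPM in Control Input (log2 fold change -0.69, SE 0.17). Trh, Tac2 and Sst had log2 fold changes of -0.75, -0.63 and 0.17. Nts, the neurotensin precursor, had a log2 fold change of -0.06 in Input and -1.11 in IP. Immediate early genes of neuronal activity had 18 of 24 positive, 2 at an unadjusted p under 0.05 (11.4% of all genes) and a median of 0.05, with log2 fold changes of 0.33 for Npas4, 0.13 for Fos and -0.01 for Egr1. Circadian genes had 15 of 19 negative and a median of -0.09, with log2 fold changes of -0.16 for the repressor Nr1d1 and -0.37 for Bhlhe40. Cholesterol synthesis (median 0.04), glycolysis (-0.03) and heat shock genes (0.03) were near the median of all genes, with log2 fold changes of 0.07 for Hmgcs1, 0.01 for Gapdh and 0.01 for Hspa8.

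Lists of the other cell types had medians between -0.16 and 0.12. Myelin genes of oligodendrocytes had 0 of 15 at an unadjusted p under 0.05 and a median of 0.02, with log2 fold changes of 0.07 for Mbp and 0.17 for Mobp, and precursors had a median of 0.02. Endothelial markers were mixed (median 0.06), with log2 fold changes of -0.23 for the glucose transporter Slc2a1 and 0.32 for the tight junction gene Cldn5. Mural cells had 4 of 11 higher (5.23% of all genes) and 0 lower (6.13%) at an unadjusted p under 0.05, with a median of 0.12, with a log2 fold change of 0.54 for Acta2, the smooth muscle actin. Among interneuron markers the cholinergic genes Chat and Slc18a3 had log2 fold changes of 0.21 and 0.32, and Sst and Nos1 of 0.17 and 0.20. Calb2 and Pvalb (log2 fold change -0.31) were on the opposite side. The summed levels of interneuron markers overlapped, with 474.8 to 492.7 CPM in Crym KO Input and 465.0 to 502.4 CPM in Control Input. The median was 0.08 for interneuron markers and -0.08 for septum markers. Cortical neuron markers had a median of -0.03 and subventricular zone genes of -0.02. The median was 0.03 for globus pallidus markers, -0.14 for leptomeningeal markers with 0 of 14 at an unadjusted p under 0.05, and -0.16 for red blood cell genes with 0 of 6.

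The IP and Input effects of Crym KO came from the same 8 mice and were set side by side. The difference between them passed an adjusted p of 0.05 for 0 of 20645 genes (0%) in limma-voom, with 704 at an unadjusted p under 0.05, and for 0 in edgeR (714) or when IP minus Input was taken within each mouse (974). The smallest p belonged to Nts, with a difference of -1.06 (adjusted p = 1.00, limma-voom), followed by Crym. For Abca14 the log2 fold change was 6.50 in IP and 4.80 in Input, with a difference of 1.70 (adjusted p = 1.00). Rpl22 had log2 fold changes of 0.93 in IP and 0.23 in Input, and Zic1 -0.24 in IP and -1.04 in Input. The log2 fold change of Sgk1 was -1.22 in IP and -0.80 in Input, that of Ddit4 -0.31 in IP and -0.37 in Input, and that of Rmrp -1.03 in IP and -0.27 in Input.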

How the data were processed

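RNA was sequenced from Input of 8 mice (4 Crym KO, 4 Control). Per the labels and methods, the authors depleted ribosomal RNA, made paired-end TruSeq libraries, aligned reads to mm10 (GRCm38) with STAR and deposited counts per gene from HTSeq, with base calls from bcl2fastq 2.17 per the submitters' processing notes. The deposited counts were used as whole, uncorrected numbers. The gene model is uncertain, since the methods name RefSeq and the table holds Ensembl identifiers, and the strand setting is not given in the sources used here. Identifiers without a symbol (446) held 0.0892% of counts. No pair of libraries was identical.

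Genes were kept by the edgeR expression filter, scaled by TMM and tested with limma-voom (limma 3.58.1, edgeR 4.0.16, R 4.3.3) on the 8 Input libraries with no covariate, two-sided, with Benjamini-Hochberg adjustment over all genes kept and a threshold of 0.05. The IP libraries entered only the side-by-side values and the test of the difference between effects, in a fit of all 16. CPM are deposited counts divided by the library size after TMM correction, and 0.1 CPM was added before logs in the permutation tests. Intervals of count ratios cover counting error only. P-values measure the spread between these mice. The code was tested on simulated data. Alternatives were edgeR, DESeq2 1.42.0, other scalings and filters, a term for sex, a replicate block and leaving out each library. Leaving out Control Input 1 and 4 together, and number 4 of both groups, was chosen after seeing the data.

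Named were Crym, Abca14, Rpl22, the 24 genes with the smallest p among those at 1 CPM or more in the mean of the higher group, and up to 4 genes of lowest p per list. Not every gene the rule covers is given, and lists near the median of all genes are given by their median or by fewer members. Other members were named for their role, after their values were seen. A few genes are not reported here. The comparison and the 48 lists were chosen with earlier results of these data known. Figures were drawn with matplotlib 3.10.9.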

Additional observations from a re-analysis of the deposited data

Results flagged for a closer look

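In 12 of 150 groups of 4 libraries examined, 1 library lay farther from the others than Dixon's 95% limit allows, a limit that chance passes in about 1 of 20 groups. Crym was at 56.0 CPM in Crym KO Input 1, against 43.9 to 45.3 CPM in the other 3 Crym KO libraries. Abca14 had 0.0553 CPM in Control Input 3, where the other Control libraries had 0 counts. As those were tied at 0, any value above 0 would have been flagged, so this flag among the 12 is not informative. Prkcd reached 97.2 CPM in Control Input 1, against 31.6 to 41.7 CPM in the others, and the choroid plexus sum reached 1214 CPM in Control Input 4, against 287 to 317 CPM.

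Smaller steps were found for Plch1 in Control Input 3 (17.1 CPM, the others 19.1 to 19.4), Ucp2 in Crym KO Input 2 (5.02 CPM, the others 4.34 to 4.44) and St8sia3 in Crym KO Input 2 (266 CPM, the others 290 to 292). Among list sums, 1 library stood apart for subventricular zone genes in Crym KO Input 1 (505 CPM, the others 495 to 496), mural cells in Control Input 2 (172 CPM, the others 194 to 197) and glutamate handling in Control Input 1 (8308 CPM, the others 8083 to 8102). The same held for immediate early genes in Crym KO Input 2 (1704 CPM, the others 1587 to 1605) and unfolded protein response genes in Crym KO Input 4 (2952 CPM, the others 3049 to 3057).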

How the results depend on the processing

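The count of called genes (0 of 19990) was the same with edgeR, robust variance moderation, sample weights, 3 other scalings and no filter or a stricter one. It was 160 with DESeq2 (57 higher, 103 lower), 2 with all 16 libraries fitted (1 higher, 1 lower) and 2 with a term for sex (1 and 1). Over mice 1 and 2 alone it was 86 (9 higher, 77 lower), and over mice 3 and 4 alone 1 (higher). Leaving out 1 library gave 0 to 127 calls, 0 to 3 higher and 0 to 124 lower, the highest without Control Input 4, with 6 without Control Input 3. Without Control Input 1 and 4 it was 140 (3 higher, 137 lower), and without number 4 of both groups 80 (1 higher, 79 lower). With the replicate block 207 genes were called (39 higher, 168 lower). Deviations of equal numbers correlated across genes at 0.0724 to 0.212 (-0.0514 to 0.139 on autosomes), so the numbers were not taken to pair mice. Over all genes numbers 2 and 4 correlated best with their own number, and on autosomes only number 4 did. Equal numbers were of equal sex.

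Abca14 kept its direction in all settings run. It passed the threshold with DESeq2 (5.10), all 16 libraries (4.80), the replicate block (4.76), a term for sex (4.83), mice 1 and 2 alone (4.89) and without number 4 of both groups (4.57), and leaving out 1 library gave 4.43 to 5.46. The stricter filter removed it. Crym ranged from -0.50 to -0.17, -0.42 to -0.26 without 1 library, and passed with DESeq2 alone (-0.33). Of the 24 genes with the smallest p, a set picked in these same libraries, 18 passed with the replicate block and 8 without Control Input 1 and 4. Abca14 rests on 94 counts in Crym KO Input and 3 in Control Input, and the median SE over all genes was 0.08. No cause of these dependences was tested.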
